A study of Orbicella faveolata with 56 samples.

Results

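The heat response described here is that of Orbicella faveolata corals collected offshore, moved to an inshore site in the Florida Keys and then held at 30 or 32 °C. It was measured in 10 RNA sequencing libraries, 5 at each temperature, out of 56 in the series, of which 55 could be matched to a column of the deposited tables. The 10 are fragments of corals C1, C2, C4, C5 and C6, with 1 fragment of each coral at each temperature. Coral C3 was left out because no column name matches its label at 32 °C. The corals carry genotype labels O1, O2, O4, O5 and O6, so each coral is its own genotype, and all came from a single collection site (IKO2). Temperature was changed over 7 days and then held for 6 days before tissue was sampled. Per the labels, heat was applied after the move inshore. The series holds 14 corals, 6 of offshore and 8 of inshore origin, each with a fragment at both sites and both temperatures. The inshore-origin corals, used here for comparison only, came from 3 collection sites and carry 6 genotype labels, since A3, A5 and A6 are all genotype In1 and so not independent of each other.

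Reef corals are animals that house photosynthetic dinoflagellates inside cells of their gastrodermis, and the algae supply most of the carbon the host respires. Heat stress can break this partnership, and the loss of the algae is known as bleaching. Durusdinium trenchii, the symbiont whose transcripts fill the second deposited table, is known as a heat-tolerant species that often becomes more common in corals after bleaching. In the animal, heat is known to raise chaperone, antioxidant and immune transcripts. The deposited identifiers are assembly names with no gene names, so such genes could not be looked up, and rows are given by identifier. A row is an assembled transcript group, prefixed OFAVBQ in the table taken as the host and Dtrenchii in the symbiont table.

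Host totals lay between 4108079 and 7239229 estimated counts per library and symbiont totals between 387754 and 1801987. The best-correlated library of every host library was the other fragment of the same coral (10 of 10), with r across rows of 0.947 to 0.972. Among symbiont rows this held for 0 of 10, and same-coral r ran from 0.870 to 0.937. Library numbers go with temperature. The 30 °C libraries of C1, C4, C5 and C6 are numbered 11, 7, 8 and 12, the 32 °C libraries are numbered 17 to 46, and in the series all libraries numbered up to 16 are at 30 °C. What these numbers stand for is not given, and number and temperature cannot be told apart in those 4 corals. In C2, numbered 50 at 30 °C and 35 at 32 °C, both libraries come from above 16, so its own values are given beside the main results. Outside the 10 libraries, the same split holds at the inshore site in A5, A6, B2, B4 and B6. At the offshore site it holds in A3, A5, A6, B6, C1 and C2.

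The D. trenchii share of all counts was lower at 32 °C in 4 of the 5 corals, with a wide range of falls. At 30 °C the share was 20.1% in C1, 22.5% in C2, 26.8% in C4, 17.1% in C5 and 11.1% in C6. At 32 °C it was 5.08% in C1, 12.9% in C2, 23.8% in C4, 18.5% in C5 and 7.52% in C6. The groups overlapped, C4 stood highest at both temperatures, and C5 was the coral that did not fall. The mean went from 19.5% ± 5.89 to 13.6% ± 7.69 (SD, n = 5 each). As a ratio of symbiont to host counts, the share fell 4.70-fold in C1, 1.95-fold in C2, 1.54-fold in C6 and 1.18-fold in C4. The mean change of the log2 ratio was -0.78 ± 0.910 (SD, n = 5), and a two-sided exact sign-flip test gave p = 0.125, where the smallest p that 5 corals allow is 0.0625. Without C1 the mean change was -0.42. Binomial (Wilson 95%) intervals, which cover counting error only, were narrow against these differences, for instance 5.07 to 5.10% for C1 at 32 °C. In bulk tissue, fewer algal cells and less RNA per algal cell cannot be told apart, and the table covers D. trenchii alone.

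**Figure D1:**
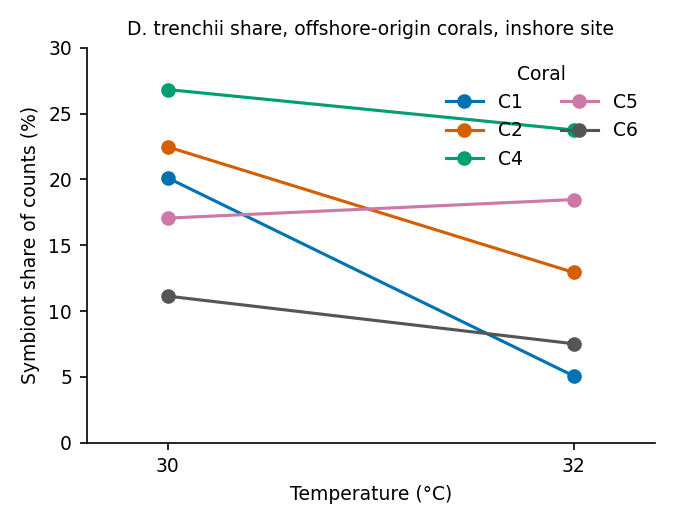
Share of all counts (host plus D. trenchii, in %) that fell in the symbiont table at 30 and 32 °C, with a line for each of the 5 corals. The lines of C1, C2, C4 and C6 go down, by very different amounts, and that of C5 goes from 17.1 to 18.5%.

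In the symbiont, rows of both directions differed between 30 and 32 °C. Of 21259 D. trenchii rows tested, 115 (0.541%) passed the threshold of an adjusted p of 0.05 in edgeR's quasi-likelihood test with coral as a block and Benjamini-Hochberg adjustment. At 32 °C 60 rows (0.282% of those tested) were higher and 55 (0.259%) lower. The median rise was 1.94-fold, from 1.32 to 7.20, and the median fall 1.60-fold, from 1.24 to 4.604, while 28 rises and 9 falls were over 2-fold. Corals disagreed in the rows of the largest rises. Dtrenchii_DN185492_c0_g2, at 7.20-fold, was higher in 3 of 5 corals. The next largest rises, Dtrenchii_DN162250_c0_g1 and Dtrenchii_DN199008_c3_g1, were higher in 4 and 3 of 5. Levels are within the symbiont table (CPM, scaled to the counts of the tested symbiont rows). The lower share of symbiont counts at 32 °C therefore does not scale them, though it lowers the depth behind them. With the symbiont ratio as a term, added after the data were seen, 34 rows were called, 28 of them among the 115. Whether the levels follow the share in some other way was not tested. DESeq2 called 20 rows, and all 20 were among the 115. Of the symbiont rows named below for heat, it called Dtrenchii_DN201480_c0_g1. Dtrenchii_DN184374_c0_g1, Dtrenchii_DN217_c0_g2 and Dtrenchii_DN185295_c0_g1 got no adjusted p from DESeq2 and so were not called by it. Whether the symbiont or the host table held more calls depended on the setting. It was 115 symbiont against 1 host row in the fit used here, but 20 against 47 with DESeq2, 211 against 633 without a low-count filter and 18 against 82 with a term for library numbers up to 16. That term leaves C2 to set the heat estimate, and 7 of its 18 rows were among the 115. Without C1 60 rows were called and without C5 62. p-values here rest on how the heat change varied between these 5 corals. edgeR pooled that spread strongly over symbiont rows (prior degrees of freedom 41.4, against 4 residual). A row could therefore pass with corals that disagreed. Dtrenchii_DN185492_c0_g2 passed with log2 changes of -0.88 in C1, 4.87 in C2, 2.49 in C4, 4.34 in C5 and -1.82 in C6.

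Dtrenchii_DN201480_c0_g1 fell from an even level in every coral. Its level at 30 °C was 108 CPM in C1, 102 in C2, 103 in C4, 91.4 in C5 and 91.8 in C6, and at 32 °C it was 19.1, 28.01, 29.7, 42.1 and 42.3 CPM in the same order. The row had 7 to 178 counts per library. The lowest coral at 30 °C stood above the highest at 32 °C, so the groups did not overlap. The fall was steepest in C1, whose symbiont share also fell most. The change was -1.08 on the log2 scale both in C5, whose share did not fall, and in C6, whose share did. Whether the row follows the share was not tested. The mean went from 99.3 ± 7.38 to 32.3 ± 9.95 CPM (SD, n = 5 each), a 3.01-fold fall (log2 -1.59 ± 0.151 SE, adjusted p = 2.00e-09, edgeR).

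Dtrenchii_DN184374_c0_g1 rose by about as much, again from an even level. It stood at 17.1 CPM in C1, 19 in C2, 12.8 in C4, 18.3 in C5 and 17.1 in C6 at 30 °C, and at 57.4, 65.3, 42.9, 34.9 and 37.6 CPM at 32 °C. No coral at 32 °C came down to the level of any at 30 °C, and C2 had the highest level at both temperatures. The row had 11 to 52 counts per library, and its rise was 2.86-fold (log2 1.52 ± 0.192 SE, adjusted p = 1.44e-06, edgeR). DESeq2 did not call it.

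Dtrenchii_DN217_c0_g2 and Dtrenchii_DN185295_c0_g1 rest on fewer counts or on uneven levels. Dtrenchii_DN217_c0_g2 was at 5.14 CPM in C1, 8.77 in C2, 3.48 in C4, 3.65 in C5 and 4.67 in C6 at 30 °C and at 19.1, 13.3, 13.2, 10.7 and 23.5 CPM at 32 °C, with 3 to 16 counts per library. The groups did not overlap (2.88-fold higher, log2 1.52 ± 0.331 SE, adjusted p = 0.0121, edgeR), but the row no longer passed without C1, C5 or C6, and with the term for library numbers its log2 change was 0.60. Dtrenchii_DN185295_c0_g1 differed between corals more than between temperatures. It was at 2.57 CPM in C1, 8.77 in C2, 40.6 in C4, 41.1 in C5 and 120 in C6 at 30 °C, and at 0, 2.67, 5.77, 9.85 and 30.6 CPM at 32 °C. Each coral was lower at 32 °C, in the same order of corals, while the groups overlapped because C6 at 32 °C stood above C1 and C2 at 30 °C. Its change within corals was -2.20 ± 0.246 SE on the log2 scale (adjusted p = 1.00e-07, edgeR), and it did not pass without coral as a block or with the term for library numbers (log2 -1.67).

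**Figure D2:**
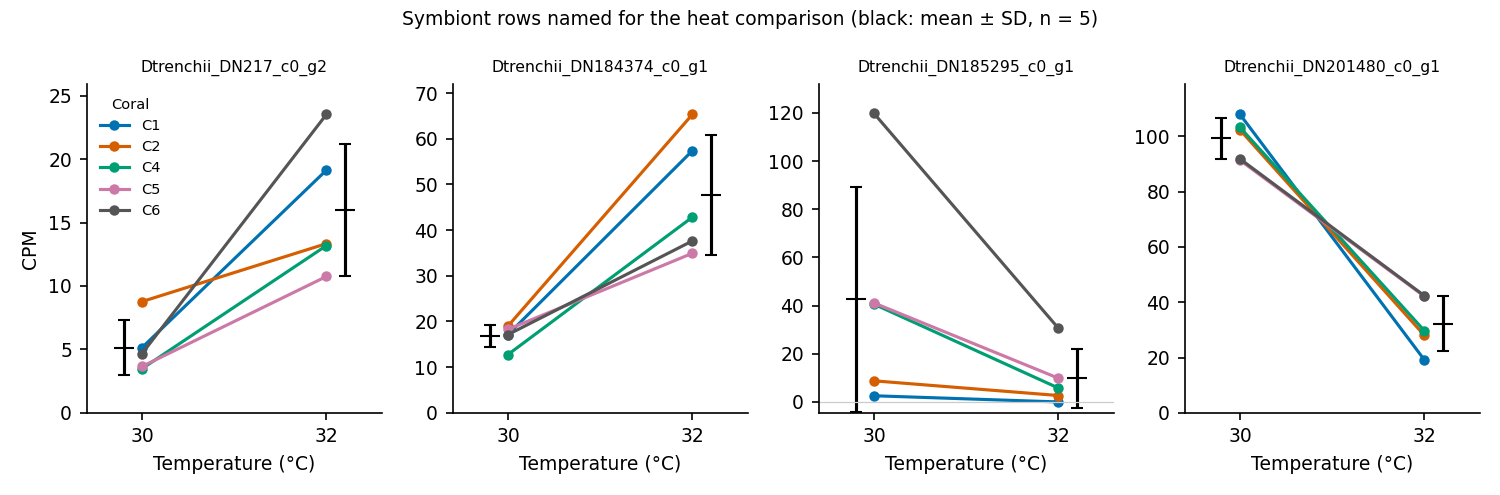
Level (CPM of the tested symbiont rows) at 30 and 32 °C of the 4 symbiont rows named for the heat comparison, with a line per coral and the mean ± SD (n = 5) in black. Dtrenchii_DN201480_c0_g1 and Dtrenchii_DN184374_c0_g1 start within a narrow range at 30 °C, while Dtrenchii_DN185295_c0_g1 starts between 2.57 and 120 CPM.

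Most called symbiont rows moved the same way in every coral. Of the 115, 101 had the same direction in 5 of 5 corals, 11 in 4 and 3 in 3. Among all tested rows 9.69% had the same direction in 5 of 5. That share is no test of the called rows, since agreement between corals is part of what the call measures. The groups did not overlap for 71 of the 115 (61.7%), against 1.97% of all rows tested. This is no test either, since the 115 were called for their difference between the temperatures in the same libraries. The median log2 change of the rising rows was 0.94 in C1, 0.71 in C2, 0.83 in C4, 0.62 in C5 and 0.70 in C6. For the falling rows it was -0.63, -0.65, -0.64, -0.69 and -0.55 in the same order. C5, whose symbiont share did not fall, had the lowest median among the falling rows, and C1, whose share fell most, the highest among the rising rows. In C2 alone, where library number does not separate the temperatures, 59 of the 60 rising and 55 of the 55 falling rows had the direction of the call. C2 had a part in the choice of these rows, so its agreement is no check on library number.

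Rows chosen without a coral still moved the same way in it. This description, added after the data were seen, took the rows called in the fit on 4 corals and read them in the fifth. The fifth coral's libraries had no part in the call. They did have a part in the low-count filter, since only rows also tested in the 10 libraries were read. Of such rows called without C1, 52 of 58 (89.7%) had the same direction in C1. The numbers were 68 of 88 (77.3%) for C2, 76 of 95 (80.0%) for C4, 55 of 62 (88.7%) for C5 and 83 of 98 (84.7%) for C6. Between 48.7 and 51.3% of all symbiont rows had either sign in any of these corals. C2, the coral free of the split in library numbers, had the lowest share. Its median log2 change was 0.48 over the rows that the other 4 corals raised and -0.49 over those they lowered, against 1.03 and -0.79 in the fit that chose them.

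The same symbiont rows leaned the same way in the 8 inshore-origin corals (6 genotypes) held at that site, a set of 16 libraries that shares none with the 10. Of the 115 rows 103 (89.6%) had the same sign there, 53 of the 60 rising and 50 of the 55 falling, where 45.6% of all rows were higher and 54.4% lower. Their median log2 changes there were 0.47 and -0.46, against 0.96 and -0.68 in the offshore-origin corals that chose them. Of the 115, 8 passed the threshold there. The smallest adjusted p of these 8 belonged to a row of the opposite sign, Dtrenchii_DN208801_c0_g1. It was at 1.70 on the log2 scale in the offshore-origin corals and at -1.43 there (adjusted p = 6.97e-09, edgeR). Dtrenchii_DN201480_c0_g1 fell there as it did here (log2 -1.05, adjusted p = 0.000284, edgeR), with 6 of 8 corals lower and 0 higher. Dtrenchii_DN184374_c0_g1 passed with a rise (log2 1.41, adjusted p = 0.00728, edgeR), though 4 of 8 corals were higher and 1 lower. Dtrenchii_DN185295_c0_g1 was at 0.42 on the log2 scale and did not pass. That fit gave all rows the same spread between corals, so its p-values do not take up how unevenly a single row varied. Symbiont totals of the inshore-origin libraries ran from 4470 to 1508095, so those values lean on the few corals rich in D. trenchii.

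**Figure D3:**
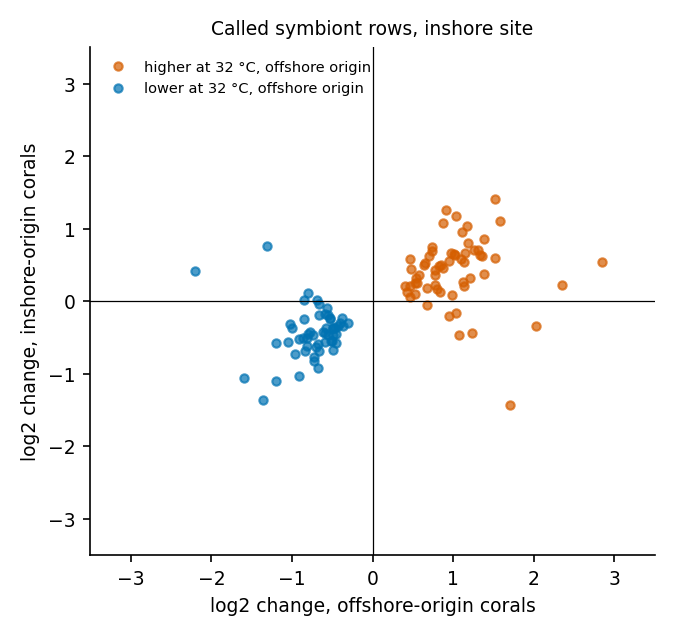
Each point is a called symbiont row, placed by its log2 change from 30 to 32 °C in the 5 offshore-origin corals (horizontal) and in the 8 inshore-origin corals (vertical), both at the inshore site. Of the 115 points 103 lie on the side of 0 given by the horizontal axis, and most are nearer to 0 on the vertical axis.

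A direct test of heat by origin in the symbiont, added after the data were seen, called 18 of the 21259 rows with edgeR, where 700 had an unadjusted p under 0.05, and DESeq2 called 0. With a robust estimate of the prior spread edgeR also called 0. The fit that called 18 gave all rows the same spread, and the named rows were uneven between corals. Among the 5 offshore-origin corals, Dtrenchii_DN185661_c0_g1 was higher at 32 °C in 2 and lower in 3. Dtrenchii_DN192304_c0_g1 was also higher in 2 and lower in 3. Dtrenchii_DN208801_c0_g1 had a change 3.11 higher (log2, offshore minus inshore origin), which became 1.41 without C4. In C4 it stood at 345 CPM at 32 °C, where the other 4 corals had 21.2 to 39.4, and 4 of the 5 corals were higher at 32 °C. Dtrenchii_DN185661_c0_g1 likewise stood at 141 CPM at 32 °C in C5 and at 4.71 to 16.4 in the others, and its difference of 4.195 between origins became 2.36 without C5 and 1.21, no longer called, without the inshore-origin coral B2. Dtrenchii_DN185295_c0_g1, lower at 32 °C in all 5 offshore-origin corals, differed by -2.60, and Dtrenchii_DN192304_c0_g1 by -2.22, or by -4.07 without C4.

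The host table held 1 call with the same test, an order between the tables that turned with other settings. Of 25901 host rows tested, 1 (0.00386%) passed the threshold (edgeR), and 1643 (6.34%) had an unadjusted p under 0.05. The median SE of a log2 change was 0.192 among host rows and 0.190 among symbiont rows. The common coefficient of variation left after the coral block, beyond counting error, was 0.184 in the host and 0.0868 in the symbiont. The prior degrees of freedom, which set how strongly edgeR pools the spread over rows, were 5.40 in the host and 41.4 in the symbiont, so an SE of a given size did not give the same p in both tables. DESeq2 called 47 host rows, 25 higher and 22 lower, among them the row called by edgeR, and 38 of the 47 moved the same way in all 5 corals. Without a low-count filter edgeR called 633, and with the term for library numbers it called 82, none of them the row called without it.

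The row that passed was OFAVBQ_DN210831_c0_g3. Its level at 30 °C was 4.13 CPM in C1, 5.55 in C2, 8.90 in C4, 6.72 in C5 and 6.41 in C6, and at 32 °C it was 10.8, 14.8, 24.5, 19.2 and 22.9 CPM in the same order. The groups did not overlap, C4 was highest and C1 lowest at both temperatures, and the rise was similar in every coral, from 1.31 in C1 to 1.78 in C6 on the log2 scale. The mean went from 6.34 ± 1.75 to 18.4 ± 5.68 CPM (SD, n = 5 each), a 2.88-fold rise (log2 1.53 ± 0.146 SE, adjusted p = 0.0447, edgeR). The call rested on all 5 corals, since leaving out C1, C2, C4, C5 or C6 moved the adjusted p above the threshold while the log2 change stayed between 1.44 and 1.55. The row was higher at 32 °C in 8 of 8 inshore-origin corals (6 genotypes) held inshore (log2 1.64), in 6 of 6 offshore-origin corals held offshore (1.15) and in 8 of 8 of the same inshore-origin corals held offshore (0.84), though it passed in none of these fits.

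The other host rows named by the rule did not pass with edgeR, and DESeq2 called all 3. OFAVBQ_DN211341_c5_g1 was at 11.8 CPM in C1, 12.9 in C2, 3.10 in C4, 4.17 in C5 and 3.40 in C6 at 30 °C, and at 25.1, 34.5, 9.95, 10.7 and 12.01 CPM at 32 °C. C1 and C2 stood above the other corals at both temperatures, so the groups overlapped although each coral was higher (log2 1.43, adjusted p = 0.0804, edgeR). OFAVBQ_DN201476_c0_g1 was at 17.97, 11.3, 52.6, 15.2 and 51.5 CPM at 30 °C and at 8.50, 1.44, 20.4, 5.05 and 19.95 CPM at 32 °C, in the order C1, C2, C4, C5, C6. It was lower in each coral and overlapped between temperatures, since C4 and C6 began well above the others (log2 -1.51, adjusted p = 0.163, edgeR). OFAVBQ_DN213318_c0_g3 was at 104, 33.1, 92.1, 95.8 and 107 CPM and then at 66.6, 17.5, 34.2, 58.2 and 37.3 CPM in the same order. C2 stood well below the other corals at both temperatures, and the change of -1.04 on the log2 scale had an adjusted p of 0.180 (edgeR).

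**Figure D4:**
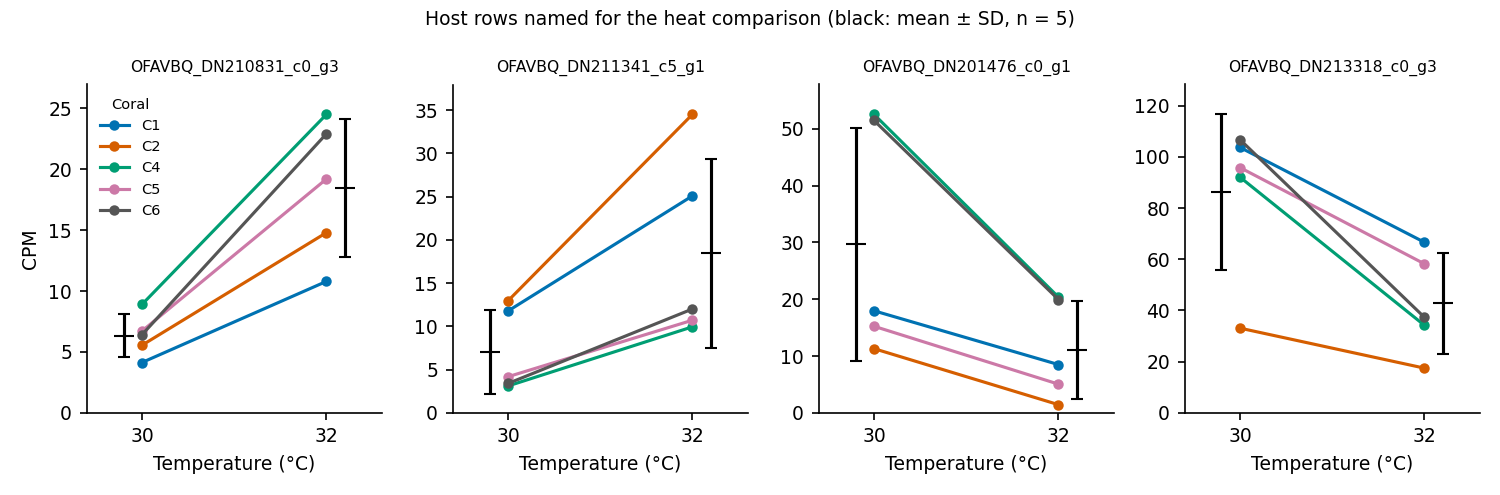
Level (CPM of the tested host rows) at 30 and 32 °C of the 4 host rows named by the rule, with a line per coral and the mean ± SD (n = 5) in black. Within each row all 5 lines go the same way, and OFAVBQ_DN210831_c0_g3 is the row of the 4 in which the temperatures do not overlap.

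All 5 corals had the same direction in 2062 rows (7.96% of those tested), 1032 up and 1030 down, and the groups did not overlap in 122 rows (0.471%). Across rows, which are not independent replicates, the log2 changes of a pair of corals correlated at a mean r of 0.0484 over 10 pairs, from -0.0747 to 0.122. In the symbiont table the mean was 0.0716, from 0.0477 to 0.116. The corals of a pair share no library. C2 had the widest host changes, with 11.3% of rows over 2-fold, and C1 the narrowest, with 4.21%. Among symbiont rows C1 and C6 were widest, at 9.25 and 8.51%, and they also had the fewest symbiont counts.

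Rows chosen in 4 corals carried over to the left-out coral less evenly in the host than in the symbiont. Here 200 rows per direction were taken by smallest p, and those also tested in the 10 libraries were read. The share that kept its direction in the left-out coral was 58.1% for C1, 70.1% for C2, 75.8% for C4, 58.5% for C5 and 70.3% for C6 in the host. In the symbiont it was 76.9, 70.6, 74.2, 76.0 and 73.2% in the same order. In C5 the host rows that the others lowered split 92 of 199 (46.2%), with a median log2 change of 0.03, whereas 136 of the 191 that they raised were higher. In C2 it was the lowered rows that carried over best, 154 of 197 (78.2%) with a median of -0.49, against 118 of 191 raised rows.

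**Figure D5:**
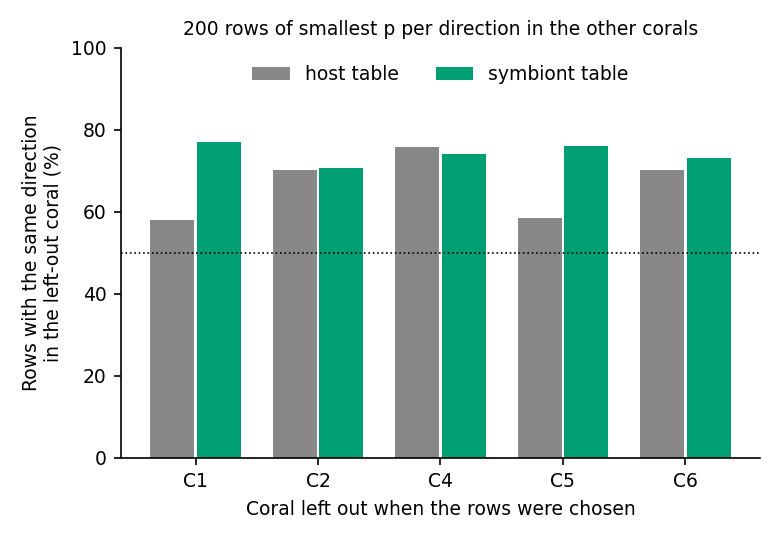
Share of rows (in %) that had the same direction in a coral left out when the rows were chosen. Rows are those of the 200 of smallest p per direction in the other 4 corals that were also tested in the 10 libraries. Host rows are in grey and symbiont rows in green. The dotted line marks 50%; symbiont bars lie between 70.6 and 76.9%, and host bars between 58.1 and 75.8%.

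Host rows highly ranked here mostly had the same sign in other corals and at the other site. Of the 200 rising rows by smallest p, 188 were tested in these 5 corals' fragments held offshore, and 166 (88.3%) were higher there, with a median log2 change of 0.30 against 0.67 here. Of the 200 falling rows 181 of 191 (94.8%) were lower there, with a median of -0.55 against -0.68. In inshore-origin corals the shares were 87.6 and 92.7% inshore, and 85.6 and 76.7% offshore. Those fits hold 51.3, 50.9 and, for the same 5 corals, 53.2% of all rows on the higher side. The sets share no library with the 10, and 1 of these rows was called in any of them.

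Rows chosen elsewhere gave the same picture from the other side. In the inshore-origin corals held inshore no row passed with edgeR (2229 had an unadjusted p under 0.05, and DESeq2 was not run on that set), so 200 rows per direction by smallest p were taken, a choice made after the data were seen. Of the rising rows 185 were tested in the 10 libraries and 176 (95.1%) were higher at 32 °C, with a median log2 change of 0.39. Of the falling rows 30 of 191 were higher, with a median of -0.30, where 51.5% of all rows were higher. Among the rising rows the median was 0.22 in C1, 0.25 in C2, 0.31 in C4, 0.49 in C5 and 0.60 in C6. From the 6 offshore-origin corals held offshore, 162 of 196 rising rows were higher here, as were 19 of 174 falling rows. The 4 rows that passed in that fit, all lower, were also lower here, and 1 of the 4 had an unadjusted p under 0.05.

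Host rows chosen for following the symbiont share in other libraries were also read in the 10. In the 32 libraries of inshore-origin corals, 145 rows had a log2 level that correlated at r over 0.7 with the symbiont-to-host ratio (log2), and 113 of them were tested in the 10 libraries. None passed with edgeR, 1 was called by DESeq2, and 34 (30.1%) had an unadjusted p under 0.05 in either direction, against 6.34% of all host rows. Of the 113, 44 (38.9%) were higher at 32 °C, against 51.5% of all host rows. Their median log2 change was -1.01 in C1, -0.45 in C2, 0.04 in C4, 0.05 in C5 and -0.14 in C6. The order of the corals by this median was that of their change in symbiont ratio. Whether such rows are algal transcripts placed in the host assembly was not tested. Without them edgeR called the same 1 host row.

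Tests of whether the host's heat response depended on site or origin called no row. Heat by transplant site in the same 5 corals (20 libraries) gave 0 of 30060 rows with edgeR and 0 with DESeq2, while 943 had an unadjusted p under 0.05 (edgeR). Heat by origin at the inshore site (26 libraries) gave 0 of 32045 with edgeR and 0 with DESeq2, while 694 had an unadjusted p under 0.05 (edgeR). Rows named by smallest p are described by their levels. OFAVBQ_DN205278_c0_g5 stood at 27.7 ± 12.97 CPM (SD, n = 5) in the cooler and 27.8 ± 13.8 CPM in the warmer fragments at the inshore site, and at 31.6 ± 8.35 and 9.25 ± 4.78 CPM in these 5 corals when held offshore. OFAVBQ_DN213919_c1_g1 went from 14.8 ± 3.95 to 17.4 ± 4.05 CPM at the inshore site (SD, n = 5) and from 10.9 ± 3.41 to 25.96 ± 6.28 CPM in their fragments held offshore. Both were close to flat in the moved corals, and for both the adjusted p of the difference was 1 (edgeR). OFAVBQ_DN309528_c0_g1, from the comparison of origins, went from 3.05 ± 0.730 to 1.52 ± 0.664 CPM in offshore-origin corals (SD, n = 5) and from 2.18 ± 1.29 to 2.82 ± 1.22 CPM in inshore-origin corals (SD, n = 8), with an adjusted p of 1 (edgeR).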

How the data were processed

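The labels' protocols give a column RNA kit and a stranded mRNA library kit. The submitters' processing notes list Trimmomatic 0.36 and RSEM, while the tables are named for kallisto; the quantifier's version and the assembly used were not given in the sources used here. The authors deposited estimated counts without normalization, 87440 host and 52359 symbiont rows. In the 10 libraries 74.1% of host and 98.4% of symbiont values were whole; all were rounded before count tests. Either table had 1 column that matched no label and was not used. Libraries within a group all differed beyond sampling noise (lowest chi-square per degree of freedom 12.1 for host and 1.19 for symbiont rows).

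Counts were tested with edgeR 4.0.16 (R 4.3.3), using TMM factors, a filter by filterByExpr at a minimum count of 10, the quasi-likelihood F test and Benjamini-Hochberg adjustment at 0.05 over all rows tested. Each table was fitted on the 10 libraries alone, with 4 residual degrees of freedom. The block was coral, since its 2 fragments come from 1 animal. CPM are scaled to the TMM-adjusted total of the tested rows, and log2 changes of single corals use a prior count of 2. Alternatives were RLE factors, DESeq2 1.42.0, no low-count filter, no replicate block, each coral left out, terms for library number and symbiont ratio, and, added after the data were seen, thinned counts, a robust prior spread, rows read in a left-out coral and the lists of 200 rows. Scripts were tested on simulated data. The named rows are, per comparison, the 2 that rose and the 2 that fell most among called rows with a mean log2 CPM of 1 or more and, outside interactions, the same direction in all 5 corals; where fewer passed, rows of smallest p filled the places. The libraries, lists and tests were chosen with earlier results of these data known.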

Additional observations from a re-analysis of the deposited data

Results flagged for a closer look

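Values of single corals stood far from the other 4 of their temperature in 8 of the 44 groups of values checked. The rule used sets about 1 in 20 apart by chance if values are normally distributed. Most groups were CPM of rows named by tests in these same data, so that rate need not hold here. Of the 8, 4 belong to symbiont rows named for the test of heat by origin. Dtrenchii_DN185661_c0_g1 was at 141 CPM in C5 at 32 °C and Dtrenchii_DN192304_c0_g1 at 44.5 CPM in C4 at 32 °C. Dtrenchii_DN208801_c0_g1 was at 55.5 CPM in C2 at 30 °C and at 345 CPM in C4 at 32 °C. In the host, C2 was low for OFAVBQ_DN213318_c0_g3 at 30 °C, at 33.1 CPM. C2 was high for OFAVBQ_DN221070_c0_g1, named for heat by origin without passing, at 36.6 CPM at 30 °C and 63.5 CPM at 32 °C. Among 30 °C libraries, the symbiont library of C6 had the lowest mean correlation with the others, at 0.905, and the fewest symbiont counts.

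edgeR's interaction test called the 4 named symbiont rows for heat by origin, while DESeq2, or edgeR with a robust prior spread, called 0 rows. The edgeR fit gave all rows the same spread, so its p-values do not take up how unevenly a single row varied. The log2 difference, offshore minus inshore origin, was 4.195 for Dtrenchii_DN185661_c0_g1, 3.11 for Dtrenchii_DN208801_c0_g1, -2.60 for Dtrenchii_DN185295_c0_g1 and -2.22 for Dtrenchii_DN192304_c0_g1.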

How the results depend on the processing

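No named row changed the sign of its fold change in the settings that gave it an adjusted p, and other rows were not checked for this. The order of the tables by calls did change. More host than symbiont rows were called under DESeq2, without a filter and with the library-number term. Against 1 row, no low-count filter gave 633, DESeq2 47, a robust prior spread 4, the symbiont ratio as a term 0, the spread shared with all libraries 0, and each coral left out 0 to 2. A term for library numbers 1 to 16 gave 82, none of them the row called without it, and draws its heat estimate from C2 alone. Without the replicate block 0 host rows were called (578 at an unadjusted p under 0.05), and 121 symbiont rows, 103 of them among the 115. Other settings gave 211 symbiont rows (no filter), 20 (DESeq2), 18 with a term for library numbers (7 of them among the 115), 34 with the symbiont ratio (28 among the 115) and 46 of 11314 after thinning to the smallest library (35 among the 115). Leaving out each coral gave 60 to 99, lowest without C1 (60) and C5 (62). Without a filter the host interactions gave 22 rows (site) and 26 (origin), and leaving out single corals gave 0 to 0 and 0 to 1 (without B4). The symbiont interaction gave 10 with RLE factors, 0 with DESeq2 or the robust prior spread, and 14 to 23 with a coral left out. The symbiont ratio change ran from -1.01 to -0.42 with a coral left out. With 5 corals and 4 residual degrees of freedom, a row not called is not shown to be unchanged.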
